A study of Mus musculus with 8 samples.

Results

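MAP kinase signalling is shut off by 2 families of inducible inhibitors that were followed here in mouse liver. Dual-specificity phosphatases (DUSPs, also MAP kinase phosphatases) remove the activating phosphates from ERK, JNK and p38. Sprouty proteins act further up and damp the passage of signal from receptor tyrosine kinases to RAS and ERK. Transcripts of both families are switched on by the pathway that they restrain, and many are short-lived. The Dusp1 mRNA has been described as a target of tristetraprolin (TTP), a protein that binds AU-rich sequence in 3′ untranslated regions (3′ UTRs) and hastens mRNA decay. The genes were the 10 named members Dusp1, Dusp2, Dusp4, Dusp5, Dusp6, Dusp10, Dusp16, Spry1, Spry2 and Spry4, out of 35275 gene identifiers in the table. All 10 had a mean of at least 0.5 FPKM (fragments scaled to transcript length and library depth) and were among the 13573 genes tested.

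RNA from 4 livers labelled Triple LKO was set against RNA from 4 livers labelled WT (wild type), with 2 females and 2 males in each genotype. Triple LKO stands for loss, in the liver, of the 3 TTP family genes Zfp36, Zfp36l1 and Zfp36l2, and the series concerns the hepatocellular carcinoma that follows. The labels name no driver of the deletion, no age, no part of the liver and no tumour or other treatment, and they do not state that each sample is its own animal. The p-values thus cover the spread among the samples given, which may be technical. Triple LKO females are numbered 1 and 2 and males 3 and 4, and WT livers likewise. These numbers follow accession order and only name the livers.

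Depth was 15.1 to 18.8 M fragments per library. Zfp36 was at 11.6 and 17.4 FPKM in Triple LKO females and 4.51 and 3.66 in Triple LKO males, against 29.5 to 61.4 FPKM in WT livers. Zfp36l1 was also below every WT liver in all 4. It was at 4.67 and 8.63 FPKM in Triple LKO females and 0.499 and 0.695 in Triple LKO males, against 10.6 to 21.9 in WT livers. The fall of Zfp36l1 was called within males (limma adjusted p = 0.00252) and not within females (limma adjusted p = 0.0798). Zfp36l2 did not follow the label in females. It was at 18.1 and 33.0 FPKM in the females labelled Triple LKO and 4.34 and 3.86 FPKM in the males, against 11.8 to 17.2 FPKM in WT livers. All 3 targeted genes were called in the test of the change in females minus the change in males. The limma adjusted p was 0.0267 for Zfp36, 0.0330 for Zfp36l1 and 0.0212 for Zfp36l2. Values were higher in Triple LKO females than in Triple LKO males each time. Results are therefore given within each sex as well. Triple LKO female 1 and WT male 4 stood apart in Gm42418, a predicted gene overlapping ribosomal RNA, which took 0.0422% and 0.0602% of their fragments and 3.18% to 4.34% in the other 6 libraries. The sum of 6 hepatocyte markers was 25244 to 31746 FPKM in Triple LKO females and 19047 to 20286 in Triple LKO males, against 41737 to 47015 in WT livers. Alb made most of it in every liver and was not called in the genotype comparison (limma adjusted p = 0.0715). Within each sex 3 of the 6 fell, Hnf4a, Cps1 and Tat in females and Ttr, Apoa1 and Tat in males. Means of Cps1 in males and of Ttr and Apoa1 in females lay above WT and were not called. In bulk tissue, fewer cells of a type and less RNA per cell cannot be told apart.

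The AU-rich sequences of the members are shown because the deleted proteins bind such sequence. The 5-base motif ATTTA, the 7-base motif TATTTAT that holds it, and the 9-base motif TTATTTATT that holds both were counted on the transcript strand of the longest annotated 3′ UTR. TATTTAT occurred in 5 of the 10 members. Dusp1 had 3 copies in 690 bases, 2 of them within TTATTTATT, and was the only member with that longest form. For comparison, 17.6% of 3′ UTRs of like length (within 25%) held at least 1 TATTTAT and 3.71% at least 1 TTATTTATT. Dusp2 had 1 copy in 581 bases, Spry1 had 2 in 1047, Spry2 had 2 in 856 and Spry4 had 4 in 3559. Among 3′ UTRs of like length, TATTTAT was in 15.4% for Dusp2, 25.4% for Spry1, 20.6% for Spry2 and 57.4% for Spry4. For the 5 members without it, the share was 26.7% (Dusp5) to 45.8% (Dusp16). Of all 21022 genes with a 3′ UTR, 27.6% held TATTTAT and 7.66% TTATTTATT. Dusp4, Dusp5, Dusp6, Dusp10 and Dusp16 held 1 to 3 copies of ATTTA and none of TATTTAT. The sites outside Spry4 follow, from GENCODE M21 transcripts on GRCm38, 5′ to 3′ on the transcript strand, with TATTTAT in capitals and the distance of its first base from the stop codon.
Dusp1, 104 bases after the stop codon, chr17:26506159-26506187, minus strand: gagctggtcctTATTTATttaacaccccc
Dusp1, 393 bases after the stop codon, chr17:26505870-26505898, minus strand: gtttttaccttTATTTATttttgtgtagg
Dusp1, 589 bases after the stop codon, chr17:26505674-26505702, minus strand: gtatgtttgttTATTTATgatctgaagta
Dusp2, 520 bases after the stop codon, chr2:127338304-127338332, plus strand: acagcactttaTATTTATatagaacattg
Spry1, 869 bases after the stop codon, chr3:37644409-37644437, plus strand: attgtaaagaaTATTTATtatgcgaatct
Spry1, 901 bases after the stop codon, chr3:37644441-37644469, plus strand: ttattttatgaTATTTATtgcaaaagact
Spry2, 694 bases after the stop codon, chr14:105892092-105892120, minus strand: agtgtaaagaaTATTTATttgaagtttta
Spry2, 733 bases after the stop codon, chr14:105892053-105892081, minus strand: aaaaaaaagaaTATTTATtttaagaggca

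**Figure D1:**
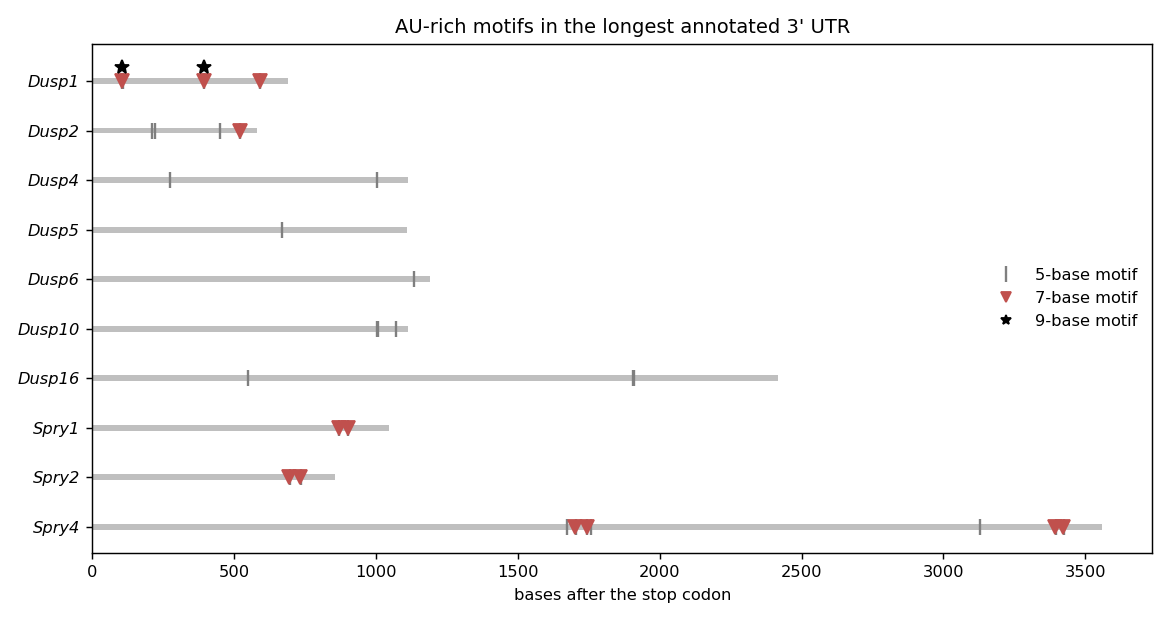
Positions of AU-rich motifs in the longest annotated 3′ UTR of each member, in bases after the stop codon (grey bars, UTR length; ticks, 5-base ATTTA; triangles, 7-base TATTTAT, which cover the tick inside them; stars, 9-base TTATTTATT). TATTTAT lies in Dusp1, Dusp2, Spry1, Spry2 and Spry4, and the stars lie in Dusp1.

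Changes of the members with and without TATTTAT are set side by side. The 5 members with it had log2(FPKM + 1) differences between Triple LKO and WT of -0.34 to 0.82, with a median of 0.62, and the 5 without it had differences of -0.31 to 1.45, with a median of 0.90. Within females the medians were 1.28 with it and 1.42 without it. The ranges overlapped both times, and no test was made on 5 genes a side. A match of letters is a description and not a binding site.

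Dusp5 and Dusp4 had the largest differences, and Dusp5 was the member called. Dusp5 (chr19:53529109-53542431, plus strand) encodes a nuclear phosphatase that acts on ERK. It stood at 3.06 and 4.73 FPKM in Triple LKO females and 1.29 and 0.431 FPKM in Triple LKO males, against 0.316 and 0.167 FPKM in WT females and 0.202 and 0.0535 FPKM in WT males. Every Triple LKO liver was above every WT liver, and this held for no other member. The mean was 2.38 ± 1.91 FPKM in Triple LKO and 0.185 ± 0.108 FPKM in WT (SD, n = 4 each), a ratio of means of 12.9. On the log2(FPKM + 1) scale, which understates changes of low genes, Dusp5 rose by 1.32 ± 0.31 (SE; limma adjusted p = 0.0177). Its lowest library held 2 fragments of Dusp5. The call was lost without WT female 1 (limma adjusted p = 0.0531), without WT female 2 (limma adjusted p = 0.0590), without the 2 libraries low in Gm42418 (limma adjusted p = 0.0706) and without both Triple LKO females (limma adjusted p = 0.0718).

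With genotype as the question and sex as a term, 1 of 10 members was called higher and 0 lower, where 24.7% of all tested genes were called higher and 5.74% lower. At an unadjusted p under 0.05 there were 5 of 10 members, beside 46.0% of all tested genes. The members' median difference was 0.69 on the log2(FPKM + 1) scale, beside 0.39 for all tested genes, so FPKM ran higher in Triple LKO livers across the table. Values of Triple LKO and WT livers did not overlap, with Triple LKO higher, for 25.6% of tested genes, beside 1 of 10 members, and with Triple LKO lower for 5.72%, beside 0 of 10.

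Dusp4 (MKP-2), a nuclear phosphatase of ERK and JNK, lies on chromosome 8 (chr8:34807297-34819894, plus strand). Its level was 5.46 and 14.9 FPKM in Triple LKO females and 0.719 and 2.97 FPKM in Triple LKO males, against 0.857 and 0.945 FPKM in WT females and 0.525 and 1.26 FPKM in WT males. Triple LKO male 3 lay among the WT livers and the other 3 Triple LKO livers lay above them. The means were 6.002 ± 6.22 FPKM in Triple LKO and 0.896 ± 0.3005 FPKM in WT (SD, n = 4 each). The difference of 1.45 ± 0.48 (SE) on the log2(FPKM + 1) scale missed the threshold (limma adjusted p = 0.0515). It was called within females, at 2.41 ± 0.51 (SE; limma adjusted p = 0.0107), and was 0.49 within males (limma adjusted p = 0.559).

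Dusp2 (PAC-1), a nuclear phosphatase best known from activated lymphocytes, was low in 6 of the 8 livers. It had 2.34 and 3.95 FPKM in Triple LKO females and 0.132 and 0.243 FPKM in Triple LKO males, against 0.447 and 0.328 FPKM in WT females and 0 and 0.246 FPKM in WT males. The 0 means no fragment among those of WT male 3 and allows up to 3. Both Triple LKO females were above all other livers and the Triple LKO males lay among the WT livers. Within females Dusp2 rose by 1.55 ± 0.27 on the log2(FPKM + 1) scale (SE; limma adjusted p = 0.00496). The difference within males was 0.09 (limma adjusted p = 0.865), and the female minus male difference of 1.46 ± 0.38 (SE) missed the threshold (limma adjusted p = 0.0609). Over the alternatives fitted, this log2 difference was 0.93 to 2.10. It passed in 3 of them, each leaving 1 Triple LKO female, whose spread cannot be measured there. The summed level of 8 T and NK cell markers moved in the same livers, at 17.7 to 39.5 FPKM in Triple LKO females and 2.51 to 3.12 in Triple LKO males, against 3.32 to 5.99 in WT livers. Within females 5 of the 7 tested markers rose. None of the 8 was at 0 in any liver, and their part in the Dusp2 values was not tested.

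Dusp1 (MKP-1), the nuclear phosphatase that limits p38 and JNK after stress, has the most copies of TATTTAT among the phosphatases, at the sites shown above. It had the widest spread in FPKM among WT livers. Dusp1 was at 36.9 and 31.9 FPKM in Triple LKO females and 16.7 and 10.4 FPKM in Triple LKO males, against 16.7 and 5.55 FPKM in WT females and 8.36 and 40.8 FPKM in WT males. The highest of the 8 values was in WT male 4, and all 4 Triple LKO values lay within the WT range. The means were 24.0 ± 12.5 FPKM in Triple LKO and 17.8 ± 16.0 FPKM in WT (SD, n = 4 each). The difference was 0.62 ± 0.61 (SE) on the log2(FPKM + 1) scale and was not called (limma adjusted p = 0.448). It was 1.72 ± 0.71 (SE) within females (limma adjusted p = 0.0985) and -0.48 ± 0.71 (SE) within males (limma adjusted p = 0.696). The highest Dusp1 value of each genotype came from the library low in Gm42418, Triple LKO female 1 and WT male 4. Without both, the male difference was 0.60 and the difference over both sexes 1.11 ± 0.47 (SE; limma adjusted p = 0.139). The female difference passed the threshold without WT male 3 (limma adjusted p = 0.0437) or without WT male 4 (limma adjusted p = 0.0435), which enter that contrast through the shared spread alone.

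The Dusp1 promoter is shown for its cyclic AMP response element, since Dusp1 is an immediate-early gene. Promoters of 300 bases around the start site were found in RefSeq (GRCm38.p6) for 8 members. The palindrome TGACGTCA, searched on both strands, was in the Dusp1 promoter, beginning 143 bases before the start, in none of the other 7 and in 1.79% of 32851 mouse promoters. The ETS motif CCGGAAG was in none of the 8 and in 8.86% of all. The Dusp1 site reads as follows on the gene's strand, with the palindrome in capitals.
Dusp1 promoter, chr17:26508597-26508626, minus strand: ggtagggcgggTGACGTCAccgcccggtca

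Dusp6 (MKP-3), the cytoplasmic phosphatase of ERK whose transcript is widely read as a gauge of ERK activity, had the highest mean of the members in WT livers. Its level was 23.5 and 41.0 FPKM in Triple LKO females and 4.64 and 15.6 FPKM in Triple LKO males, against 24.999 and 24.1 FPKM in WT females and 12.002 and 25.7 FPKM in WT males. The Triple LKO livers lay on both sides of the WT livers. The means were 21.2 ± 15.3 FPKM in Triple LKO and 21.7 ± 6.50 FPKM in WT (SD, n = 4 each), and the log2(FPKM + 1) difference was -0.31 ± 0.43 (SE; limma adjusted p = 0.597). Within females it was 0.33 (limma adjusted p = 0.671) and within males -0.94 ± 0.55 (SE; limma adjusted p = 0.275).

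The JNK and p38 phosphatases Dusp10 (MKP-5) and Dusp16 (MKP-7) were both highest in the Triple LKO females. Dusp10 (chr1:184013302-184075636, plus strand) stood at 6.16 and 3.95 FPKM in Triple LKO females and 0.896 and 2.21 FPKM in Triple LKO males, against 1.12 and 1.33 FPKM in WT females and 0.595 and 1.26 FPKM in WT males. Triple LKO male 3 alone fell within the WT range. Its difference of 0.90 ± 0.30 (SE) on the log2(FPKM + 1) scale missed the threshold (limma adjusted p = 0.0516), while within females it rose by 1.42 ± 0.33 (SE; limma adjusted p = 0.0155). Dusp16 was at 22.6 and 12.5 FPKM in Triple LKO females and 5.98 and 10.4 FPKM in Triple LKO males, against 8.78 and 9.27 FPKM in WT females and 8.55 and 8.31 FPKM in WT males. Triple LKO livers spread by 7.03 FPKM about a mean of 12.9, and WT livers by 0.408 FPKM about 8.73 (SD, n = 4 each). Of the Triple LKO livers 3 were above and 1 below every WT liver. The Dusp16 difference was 0.38 ± 0.28 (SE) on the log2(FPKM + 1) scale (limma adjusted p = 0.318), and 0.83 within females (limma adjusted p = 0.0873). Over the alternatives fitted, the log2 difference within females was 0.33 to 1.24. It passed only where 1 Triple LKO female was left, whose spread cannot be measured.

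Among the Sprouty genes, Spry1 was called higher within females, and Spry4 had its lowest values in the Triple LKO males. Spry1 (chr3:37639947-37644598, plus strand) had 5.92 and 9.98 FPKM in Triple LKO females and 2.15 and 1.76 FPKM in Triple LKO males, against 2.37 and 2.82 FPKM in WT females and 1.78 and 1.29 FPKM in WT males. Both Triple LKO females were above all other livers, and the Triple LKO males lay within the WT range. Over both sexes its difference was 0.75 ± 0.27 (SE) on the log2(FPKM + 1) scale (limma adjusted p = 0.0634), and within females it rose by 1.28 ± 0.27 (SE; limma adjusted p = 0.0104). Spry4 was at 6.14 and 5.06 FPKM in Triple LKO females and 1.86 and 1.54 FPKM in Triple LKO males, against 5.45 and 6.14 FPKM in WT females and 3.05 and 3.30 FPKM in WT males. Females of the 2 genotypes overlapped, while both Triple LKO males lay below every WT liver, as did 15.1% of tested genes. The Spry4 difference was -0.34 ± 0.19 (SE) on the log2(FPKM + 1) scale (limma adjusted p = 0.188), -0.05 within females (limma adjusted p = 0.880) and -0.63 ± 0.20 within males (SE; limma adjusted p = 0.0708). The male difference passed without Triple LKO female 1 (limma adjusted p = 0.0402) or 2 (limma adjusted p = 0.0394), both again through the shared spread. Under median-of-ratios scaling Spry4 was called lower in the genotype comparison (limma adjusted p = 0.0216) and within males (limma adjusted p = 0.0242).

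Spry2 was the least abundant member in Triple LKO livers. It had 0.923 and 2.83 FPKM in Triple LKO females and 0.562 and 0.457 FPKM in Triple LKO males, against 0.462 and 0.198 FPKM in WT females and 0.637 and 0.349 FPKM in WT males. Both Triple LKO females were above the WT livers and both males among them. The difference was 0.53 ± 0.31 (SE) on the log2(FPKM + 1) scale (limma adjusted p = 0.206) and 1.04 within females (limma adjusted p = 0.0520).

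**Figure D2:**
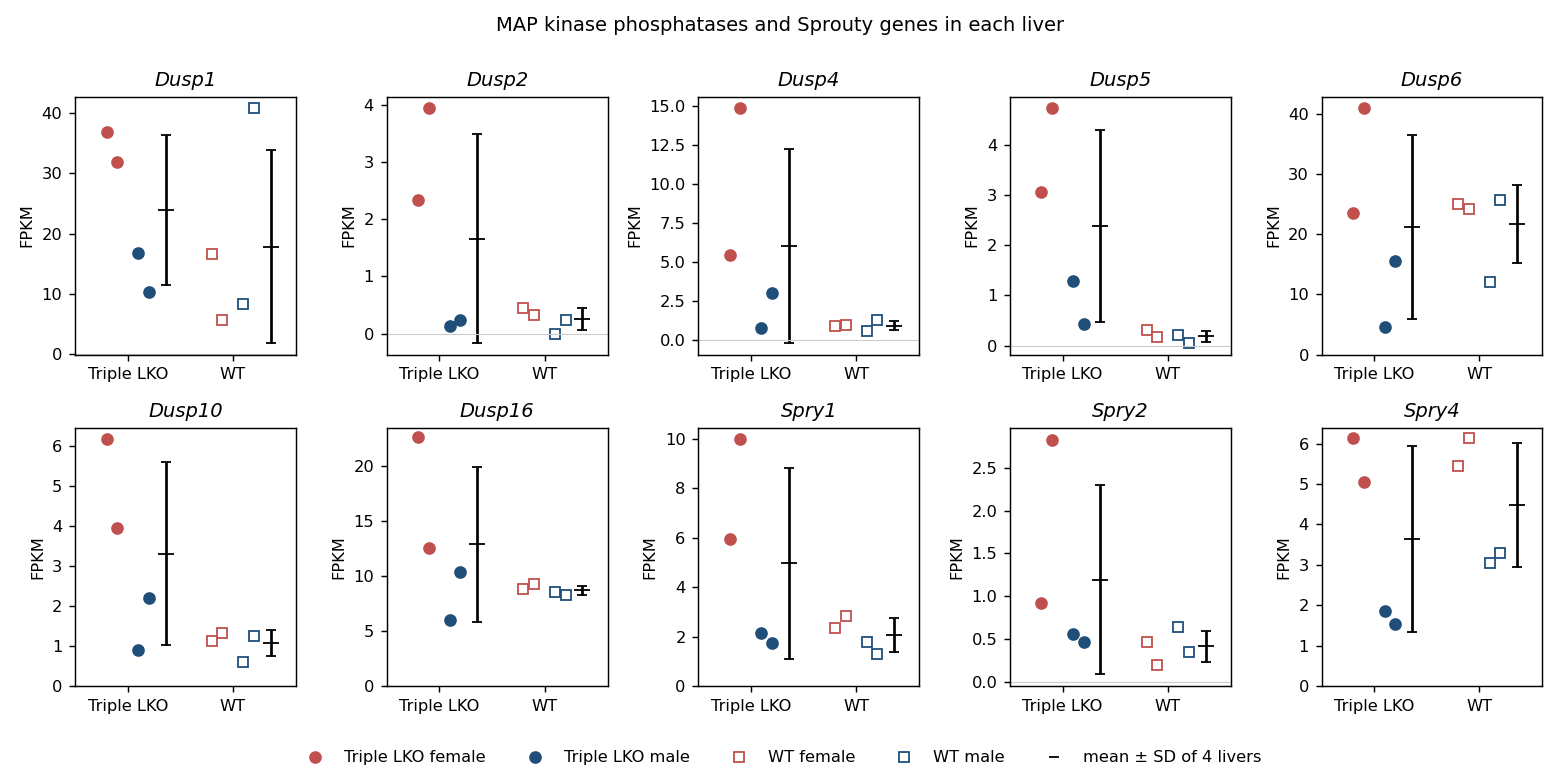
FPKM of the 10 members in each liver, Triple LKO left of WT (filled circles, Triple LKO; open squares, WT; red, females; blue, males; black bars, mean ± SD of 4 livers, with axes scaled per gene). Triple LKO females are above Triple LKO males in every panel, and Dusp5 is the panel with no overlap between the genotypes.

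The members' values split Triple LKO livers by sex, and so did the RNA of the targeted genes. Means in Triple LKO females and males were 14.5 and 4.09 FPKM for Zfp36, 6.65 and 0.597 for Zfp36l1, and 25.5 and 4.10 for Zfp36l2. Sex and the level of targeted RNA, whose source was not tested, cannot be told apart in these livers, and neither was tested alone. This holds for the female minus male differences below as well. Both Triple LKO females were above both Triple LKO males for 10 of 10 members, beside 40.5% of all tested genes, and both WT females were above both WT males for 4 of 10 members, beside 29.7%. Both Triple LKO females were above all 4 WT livers for 7 of 10 members, beside 48.7% of tested genes, the exceptions being Dusp1, Dusp6 and Spry4. Both Triple LKO males were above all WT livers for 1 of 10, Dusp5, beside 38.9%. Within females 5 of 10 members were called higher, namely Dusp2, Dusp4, Dusp5, Dusp10 and Spry1, and 0 lower, beside 28.1% and 6.23% of tested genes, 34.3% in all. The members' median difference within females was 1.35 on the log2(FPKM + 1) scale, beside 0.45 for all tested genes. Within males 0 members were called by limma in either direction, beside 13.4% of tested genes called higher and 4.09% lower, and 1 of 10 was under an unadjusted p of 0.05, beside 33.8%. The median within males was 0.05, beside 0.24 for all tested genes.

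The change in females minus the change in males was positive for all 10 members, beside 59.3% of all tested genes, with a median of 1.16 on the log2(FPKM + 1) scale, beside 0.19 for all tested genes. It stayed positive for all 10 in every alternative fitted, the lowest value being 0.23 for Spry4. It ranged from 0.59 for Spry4 to 2.20 ± 1.01 (SE) for Dusp1. No member passed the test of this difference in limma, beside 7.21% of tested genes (5.47% higher and 1.73% lower), and 4 of 10 were under an unadjusted p of 0.05, beside 25.5%. Under voom on recovered fragments, chosen after seeing the data, 0 passed too. Without Triple LKO female 1 or 2 some members passed, but those fits leave 1 Triple LKO female, whose spread cannot be measured. More of all tested genes passed there too. Of the 5 calls within females, Dusp2 and Dusp5 alone remained without WT female 1 or without WT female 2, where the lone WT female is assumed to vary like the other groups. Dusp10 was also lost without Triple LKO female 1 (limma adjusted p = 0.0534). Under median-of-ratios scaling, which brings the median of all genes to 0.03 within females, Dusp2, Dusp4, Dusp5 and Dusp10 were called higher and Spry1 was not (limma adjusted p = 0.0696).

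**Figure D3:**
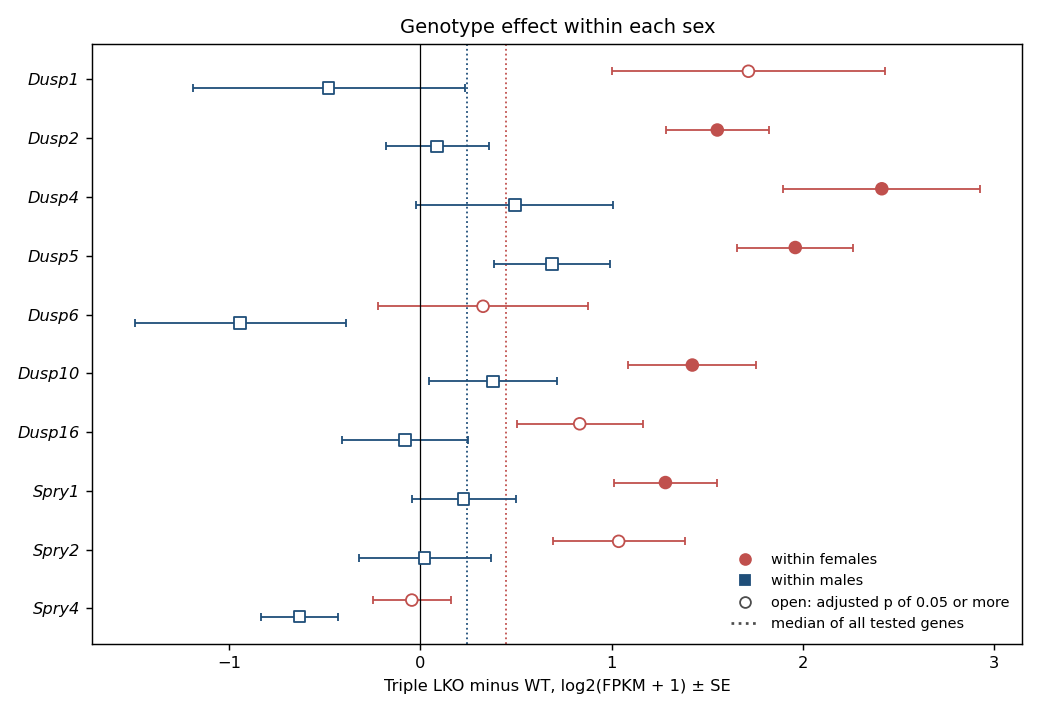
Triple LKO minus WT difference of each member within females (red circles) and within males (blue squares) on the log2(FPKM + 1) scale, with SE bars from limma (filled, adjusted p under 0.05; dotted lines, median of all tested genes in that sex). The female value lies right of the male value for all 10 members, and the 5 filled symbols are Dusp2, Dusp4, Dusp5, Dusp10 and Spry1 in females.

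FPKM is per transcript length, so levels of different genes are set side by side, within the limits of length and overlap given below. In Triple LKO livers the order was Dusp1, Dusp6, Dusp16, Dusp4, Spry1, Spry4, Dusp10, Dusp5, Dusp2 and Spry2, and every pair of neighbours overlapped. In WT livers the order of means ran from Dusp6 and Dusp1 through Dusp16 (8.73 FPKM), Spry4 (4.49), Spry1 (2.06), Dusp10 (1.08), Dusp4 (0.896), Spry2 (0.412) and Dusp2 (0.255) to Dusp5 (0.185). The 4 values did not overlap between Dusp16 and Spry4 or between Spry4 and Spry1, and they overlapped for all other neighbours. The annotated length behind the Dusp1 FPKM, 2313 bases, is that of a transcript with a retained intron. Exons of Dusp1, Dusp5 and Spry1 overlap those of Ergic1, AC137853.2 and Gm42922 on the other strand, whose reads cannot be told apart where strand is not stated.

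Within a liver, shares of each family's summed FPKM lay apart between the genotypes, for groupings picked from the values themselves. A share within a liver does not depend on how the library is scaled. Dusp2, Dusp4, Dusp5 and Dusp10 together made 17.0% and 24.4% of the summed FPKM of the 7 phosphatases in Triple LKO females and 10.004% and 13.9% in Triple LKO males. In WT livers they made 5.16% and 6.63% in females and 4.37% and 3.62% in males, below every Triple LKO liver. Among the Sprouty genes, Spry4 made 47.3% and 28.3% in Triple LKO females and 40.6% and 41.0% in Triple LKO males, against 65.8% and 67.0% in WT females and 55.8% and 66.9% in WT males. Spry1 made 45.6% to 55.8% in Triple LKO livers and 26.1% to 32.5% in WT livers. Neither set of shares overlapped between the genotypes, in males as well as in females. These groupings were chosen after the values were seen, so they carry no test. The 4 phosphatases are those called higher within females, so a higher share there was built in. Shares of Spry4 and Spry1 are parts of 1 sum and are not separate results. The summed level of the 7 phosphatases overlapped, at 30.4 to 113 FPKM in Triple LKO livers and 30.2 to 77.6 FPKM in WT livers.

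**Figure D4:**
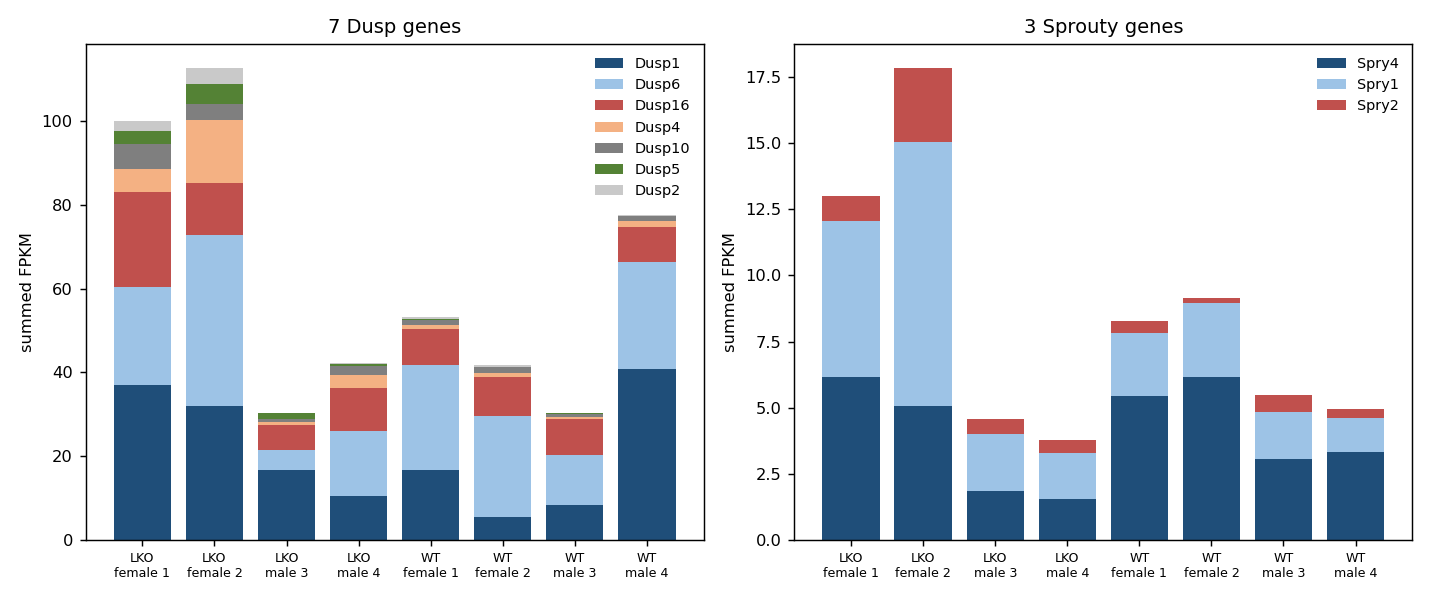
Stacked FPKM of the 7 phosphatases (left) and the 3 Sprouty genes (right) in each liver, Triple LKO livers left of WT livers. Dusp1, Dusp6 and Dusp16 fill most of each phosphatase bar, and Spry4 takes 28.3% to 47.3% of the Sprouty bar in Triple LKO livers and 55.8% to 67.0% in WT livers.

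The 3 remaining MAP kinase phosphatases gave 2 calls. Dusp8, a phosphatase of JNK and p38, was at 1.83 to 3.38 FPKM in Triple LKO livers and 0.0245 to 0.441 FPKM in WT livers, with no overlap, and rose by 1.68 ± 0.22 on the log2(FPKM + 1) scale (SE; limma adjusted p = 0.00229). It was called within males too (limma adjusted p = 0.0129). Dusp9 (MKP-4), a cytoplasmic ERK phosphatase, was at 14.1 and 2.89 FPKM in Triple LKO females and 0.235 and 0.804 FPKM in Triple LKO males and was listed at 0 in all 4 WT livers (limma adjusted p = 0.0450). Dusp7, also a cytoplasmic ERK phosphatase, missed the threshold (limma adjusted p = 0.0591). The count was 1 to 2 when single libraries were left out and 0 to 3 under the other alternatives. In the main fit 24.7% of all tested genes were called higher. Of 8 tested atypical DUSPs, which lack the MAP kinase binding domain, 2 rose and 0 fell, with a median of 0.18. They were Dusp3 (1.04 ± 0.19 SE, limma adjusted p = 0.00741) and Dusp14 (1.09 ± 0.20 SE, limma adjusted p = 0.00759). The higher count of atypical DUSPs was 2 when single libraries were left out and 0 to 2 under the other alternatives. Of the Spred genes, Sprouty relatives that also restrain RAS, 0 of 3 were called in limma, and Spred3 alone was called within females (limma adjusted p = 0.00456).

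Counts among other brakes and the pathway itself stand beside 24.7% of all tested genes called higher and 5.74% lower. Of 14 other receptor and RAS inhibitors 4 rose, among them the RAS GTPase activator Rasa3 (1.28 ± 0.24 SE on the log2(FPKM + 1) scale, limma adjusted p = 0.00804), and 1 fell. The 1 was Errfi1 (MIG6), an inhibitor of the EGF receptor, at 78.3 to 236 FPKM in Triple LKO livers and 486 to 524 FPKM in WT livers, a difference of -1.51 ± 0.35 (SE; limma adjusted p = 0.0158). The receptor Egfr itself fell by 2.21 (limma adjusted p = 0.00537), and of 15 receptor tyrosine kinases 2 rose and 2 fell. Of 20 genes of the RAS-ERK core 5 rose and 0 fell, including the ERK-activated kinases Rps6ka1 (1.52 ± 0.29 SE, limma adjusted p = 0.00784) and Rps6ka3 (0.86 ± 0.17 SE, limma adjusted p = 0.00992). Of 17 tested JNK and p38 genes 2 rose and 0 fell, among them Map3k1, an upstream kinase (1.33 ± 0.23 SE, limma adjusted p = 0.00554). Of 12 tested ERK-responsive transcripts 5 rose and 0 fell, with a median of 0.90 beside 0.39 for all genes, led by Plaur, the urokinase receptor (4.21 ± 0.47 SE, limma adjusted p = 0.00114), Emp1 (3.22 ± 0.52 SE, limma adjusted p = 0.00478) and Ier3 (2.76 ± 0.60 SE, limma adjusted p = 0.0126). Under median-of-ratios scaling the higher counts were 1 of the other inhibitors, 0 of the receptors, 1 of the RAS-ERK core, 1 of the JNK and p38 genes and 3 of the ERK-responsive transcripts. Beside these, 10.4% of all tested genes were called higher under that scaling. Leaving out single libraries gave higher counts of 1 to 5, 1 to 5, 2 to 4, 2 and 3 to 5 in the same order. Lower counts reached 2, 2, 2, 3 and 1 in that order under the alternatives that left out no single library.

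Sums of stellate cell, neutrophil, cholangiocyte, and B and plasma cell markers were highest in the Triple LKO females. Macrophage and endothelial sums there lay on both sides of the WT females. The sum of 8 stellate cell and myofibroblast markers was 340 to 1147 FPKM in Triple LKO females and 38.2 to 45.6 in Triple LKO males, against 119 to 123 in WT females and 68.8 to 71.5 in WT males, and none was at 0 in any liver. Within females 5 of the 8 rose and 1 fell, and within males 1 rose (Acta2) and 1 fell (Reln). Dcn made 21.1 and 29.8 FPKM of the sums in Triple LKO males. Acta2, at 6.96 and 5.26 FPKM, and Col1a1, at 2.69 and 2.55 FPKM, were above every WT liver in these males. Neutrophil markers summed to 59.8 to 393 FPKM in Triple LKO females and 10.03 to 17.98 in Triple LKO males, against 1.59 to 4.98 in WT livers, and all 4 tested of 6 rose in the genotype comparison, while Ly6g was at 0 in 5 livers and Mpo in 6. Macrophage markers, 8 in number, summed to 83.0 to 188 FPKM in Triple LKO females and 28.6 to 49.3 in Triple LKO males, against 125 to 135 in WT females and 57.0 to 66.6 in WT males, and within females 4 rose and 4 fell. The 6 cholangiocyte markers summed to 293 to 3158 FPKM in Triple LKO females and 7.46 to 9.83 in Triple LKO males, against 20.0 to 22.1 in WT livers, most of it Spp1 in every liver, and within females 2 of 3 tested rose. Krt19 and Epcam were at 0 in Triple LKO males. The 8 endothelial markers summed to 77.8 to 232 FPKM in Triple LKO females and 59.8 to 62.8 in Triple LKO males, against 113 to 121 in WT females and 70.5 to 80.9 in WT males. Of these, 1 rose and 1 fell within females, and 1 rose and 2 fell in the genotype comparison. The 5 B and plasma cell markers summed to 47.1 to 81.2 FPKM in Triple LKO females and 0.625 to 0.821 in Triple LKO males, against 4.76 to 45.9 in WT females and 1.78 to 2.59 in WT males. Of the 4 tested, 0 were called in the genotype comparison or within either sex. The part of these cells in the members' values was not tested.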

How the data were processed

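The table deposited by the authors holds FPKM values for 35275 gene identifiers in 8 liver RNA libraries. The tools, per the submitters' processing notes, were fastp, STAR 2.6.1, HTSeq and DESeq2 on mm10, with no roles, annotation release or strand setting given in the sources used here. Symbols, 3′ UTRs and coordinates (1-based) came from GENCODE M21 (34490 identifiers matched). The deposited FPKM gave back whole fragments (100% of values to within 0.001 fragment), hence depths of 15.1 to 18.8 M. An FPKM divides by the whole library, so it moves with every other gene. The 13573 genes averaging 0.5 FPKM or more were tested on log2(FPKM + 1) with limma 3.58.1 (R 4.3.3), trend on, with genotype and sex as terms or 1 mean per genotype and sex, and Benjamini-Hochberg adjusted p under 0.05 over all tested genes. The fit was tested on simulated data. The members and lists were chosen with earlier results of these data known. Genes named beside the members were the 3 targeted genes, up to 4 of each list with the smallest genotype p, and those with the most like profile. Alternatives were other pseudocounts, filters, scalings, terms and left-out libraries.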

Additional observations from a re-analysis of the deposited data

Results flagged for a closer look

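Dusp6 in WT livers was the value that stood apart from its group. WT male 3 had 12.002 FPKM, against 24.1 to 25.7 FPKM in the other 3 WT livers, a gap that passed Dixon's 95% critical value for 4 samples. Chance alone places about 1 in 20 groups past that value, and 20 groups of 4 livers were looked at. The Triple LKO minus WT difference of Dusp6 was not called with or without this liver.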

How the results depend on the processing

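Counts of members called higher in the genotype comparison were 3 with a pseudocount of 0.1, 0 when a mean of 2 FPKM was required (where Dusp5 is not tested), 5 with voom on recovered fragments (chosen after seeing the data), 0 without the 2 libraries low in Gm42418, 0 without both Triple LKO females, and 0 to 3 when single libraries were left out. In the same order 27.7%, 27.4%, 31.1%, 11.2%, 23.1% and 11.1% to 24.0% of all tested genes were called higher. Members called lower were 1 under median-of-ratios scaling, quantile normalization and without both Triple LKO females, Spry4 each time. Beside it 1481, 1376 and 983 of the 13573 tested genes were called lower. Within females 3 were called higher when a mean of 2 FPKM was required and 3 under quantile normalization, which called 1 lower, and 2 to 6 without single libraries. Within males 1 was called lower under median-of-ratios scaling and quantile normalization. Counts within a sex and for the female minus male difference moved in some fits without single libraries or without the 2 libraries low in Gm42418. Those fits leave 1 liver in a group of genotype and sex, so their counts of members are not given here. Of all tested genes, 27.3% were called higher within females with a mean of 2 FPKM required and 12.4% under quantile normalization, which called 1808 lower. Within males 988 genes were called lower under median-of-ratios scaling and 733 under quantile normalization. Over all genes, the 4132 genotype calls became 2421 with quantile normalization, 1970 without the 2 libraries low in Gm42418, 2505 with neighbouring title numbers as a block, and 1957 to 4054 without single libraries. The 978 calls of the female minus male difference became 577 with a pseudocount of 0.1, 604 with no filter, 94 with voom, and 31 to 2837 without single libraries. Of genotype calls 81.1% were higher, against 48.9% under median-of-ratios scaling and 43.2% under quantile normalization, which bring the median of all genes to 0.05 and -0.02.

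Uncalled log2 differences changed sign as follows. In the genotype comparison Dusp1 was -0.48 without both Triple LKO females, Dusp6 was 0.15 without the 2 libraries low in Gm42418 and -0.59 to 0.13 without single libraries, and Dusp16 was -0.0328 under median-of-ratios scaling, -0.0307 under quantile normalization and -0.0809 without both Triple LKO females. Within females Dusp6 was -0.19 under median-of-ratios scaling and -0.0612 to 0.72 without single libraries, and Spry4 -0.16 to 0.0736. Within males Dusp1 was 0.60 without the 2 libraries low in Gm42418, Spry1 was -0.10 under quantile normalization, and Spry2 was -0.10 under median-of-ratios scaling, -0.21 under quantile normalization, -0.0011 on totals without the 50 most abundant genes and -0.12 without the 2 libraries low in Gm42418. Without single libraries the male values were -1.56 to 0.60 for Dusp1, -0.0708 to 0.25 for Dusp2, -0.11 to 1.10 for Dusp4, -0.0008 to 0.76 for Dusp10, -0.44 to 0.27 for Dusp16 and -0.12 to 0.16 for Spry2. The cause was not tested. The labels give no replicate numbers. In the block on neighbouring title numbers Dusp5 was the 1 member called (limma adjusted p = 0.0467), and deviations of such pairs correlated by 0.13 in females and 0.15 in males, 1 value per sex. The planned count models on raw counts were not run, since the values are FPKM. Depth limits Dusp2, Dusp5 and Spry2 most, with 0, 2 and 7 fragments in their lowest libraries.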

Other observations

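The genes whose profile over the 8 libraries lay closest to 4 of the members were looked up among protein-coding genes with a mean of at least 1 FPKM. The measure was the root mean square difference of log2(FPKM + 1) values, each profile centred on its WT mean. Dusp5 lay closest to P4ha1, a subunit of the collagen prolyl hydroxylase, at a distance of 0.17, and to Smtn, which encodes the smooth muscle protein smoothelin, at 0.18. P4ha1 was at 11.1 and 24.8 FPKM in Triple LKO females and 6.69 and 4.73 FPKM in Triple LKO males, against 2.95 to 3.92 FPKM in WT livers. Dusp4 lay closest to the heme oxygenase Hmox1 (0.25) and the actin regulator Enah (0.25). Hmox1 was at 43.9 and 155 FPKM in Triple LKO females and 10.2 and 29.5 FPKM in Triple LKO males, against 12.7 to 17.3 FPKM in WT livers, and like Dusp4 was highest in Triple LKO female 2 and in the WT range or below it in Triple LKO male 3. Dusp10 lay closest to Rhbdf2 (0.13) and Nav1 (0.13). Nothing lay close to Dusp1, whose nearest genes, Gas2l1 and Med11, were 0.53 and 0.56 away. Among the members themselves the closest pair was Dusp2 and Spry1, at 0.22. These are descriptions over 8 libraries that share genotype and sex, and no test was made.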
